A study of Mus musculus with 3 samples.

Results

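Early B cell development was followed through 10 genes, all of them measured among the 32285 genes of the count matrices: Vpreb1, Igll1, Vpreb3, Rag1, Rag2, Dntt, Ebf1, Sox4, Klhl14 and Cd93. They were chosen by name, as genes of pre-B and immature B cells, with earlier results of these data known. They were read in cell barcodes with at least 1 unique molecular identifier (UMI, 1 counted RNA molecule) of Cd79a, the signalling chain of the B cell receptor. The question was whether B cell precursors sit in the aorta. The data are 3 droplet libraries of single immune cells from mouse aortas, with 1 library for each group. All mice were labelled ApoE-/- on C57BL/6J, a strain that clears lipoproteins poorly and develops atherosclerosis. The Ctrl group had no further treatment, the HHcy group drank water with Hcy at 1.8 g/L for 4 weeks, and the WD group received a western diet for 4 weeks. Per the labels' protocols, vessels were rinsed with buffer, stripped of fat and digested with the adventitia in place, and live nucleated CD45+ cells were sorted. Ages, sexes and the number of mice pooled in a library are not given in the sources used here.

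Apoe, disrupted in all 3 groups by label, held 1090 UMIs in the Ctrl library, 1801 in the WD library and 39368 in the one labelled HHcy, or 16.3, 19.3 and 374 CPM (counts scaled to the same library total). That level goes against the knockout label, so it is named below only as the library labelled HHcy, and any direction given for it carries this mismatch. Of 6038, 8155 and 6710 barcodes that passed the limits on genes and mitochondrial UMIs (Ctrl, labelled HHcy and WD, the order kept below), 11.2%, 23.3% and 22.3% reached the marker limits of 2 or more lineages and were not used. The 2697, 4280 and 1672 Cd79a barcodes that remained had medians of 7909, 6612 and 7363 UMIs. Of these, 84.8%, 89.3% and 75.8% reached the B lineage limit (at least 50% of 12 B cell markers detected), and most of the others were mononuclear phagocytes or reached no limit. With 1 library per group there was no replicate check and no test, and every interval below is a 95% interval for counting error only.

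B cells are made in the bone marrow in ordered steps. Pro-B cells cut and join their heavy-chain gene with the recombinase made by Rag1 and Rag2, and Dntt, a template-free DNA polymerase, adds bases at the joints. In the pre-B cell the new heavy chain pairs with a surrogate light chain made by Vpreb1 and Igll1, the cell divides, and both genes are switched off before a true light chain appears. Ebf1 is a transcription factor that commits cells to the lineage and remains on in mature B cells. Vpreb3 (a relative of Vpreb1), Cd93 (the antigen of transitional B cells), the transcription factor Sox4 and Klhl14 (a ubiquitin ligase adaptor) mark immature and transitional stages to differing degrees. Outside the B lineage, thymocytes also use Rag1, Rag2 and Dntt, and phagocytes and endothelium carry Cd93.

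Vpreb1 and Igll1, the surrogate light-chain pair, are neighbours on chromosome 16 of GRCm38, both on the minus strand. Igll1 spans chr16:16860671-16863985 and Vpreb1 chr16:16868403-16870843, with 4417 bases between them. The 250 bases before their RefSeq start sites are shown because these are the members that were detected together at high counts, with the same window of Vpreb3, which was widespread in B cells, for comparison. Capitals mark matches, on either strand, to a core of the EBF site (CCCNNGGG), to the E box CAGGTG or to the octamer ATGCAAAT, none of which overlap here. The windows are chr16:16863986-16864235, chr16:16869256-16869505 and chr10:75948050-75948299 in RefSeq's GRCm38.p6 table, each read along its gene's strand.
Igll1: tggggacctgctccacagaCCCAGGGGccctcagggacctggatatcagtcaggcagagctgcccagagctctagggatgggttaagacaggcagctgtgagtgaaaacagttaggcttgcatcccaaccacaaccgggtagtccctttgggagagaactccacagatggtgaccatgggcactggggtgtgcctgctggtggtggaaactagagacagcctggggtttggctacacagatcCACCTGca
Vpreb1: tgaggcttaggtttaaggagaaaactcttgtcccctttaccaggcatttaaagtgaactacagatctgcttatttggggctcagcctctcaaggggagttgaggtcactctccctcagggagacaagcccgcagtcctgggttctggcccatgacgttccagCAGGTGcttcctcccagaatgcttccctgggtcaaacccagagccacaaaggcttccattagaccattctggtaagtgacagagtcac
Vpreb3: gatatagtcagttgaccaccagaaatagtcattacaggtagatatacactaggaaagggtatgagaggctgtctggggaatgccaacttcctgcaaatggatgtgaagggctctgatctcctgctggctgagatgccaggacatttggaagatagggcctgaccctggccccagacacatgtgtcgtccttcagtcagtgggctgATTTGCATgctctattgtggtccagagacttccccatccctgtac

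Igll1 held CCCNNGGG 231 bases before the start and an E box 8 bases before it. Vpreb1 held an E box 88 bases before the start, and Vpreb3 an octamer 45 bases before it. Among 32851 windows of this length, 11.8% held CCCNNGGG, 17.2% held CAGGTG and 1.60% held the octamer, so each match alone is common or at most uncommon, and it is a description of letters, not of a bound site. GENCODE places 190 of the 250 Vpreb1 bases in exons annotated to Vpreb1. The table held windows for 8 of the 10 genes.

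Igll1, which makes the lambda5 part of the surrogate light chain, was detected in 2 of the 8649 Cd79a barcodes. Both came from the Ctrl library, with 25 and 4 UMIs. It was in 0 of 4280 barcodes labelled HHcy and 0 of 1672 of the WD library, which allows shares of up to 0.0701% and 0.179%. The interval of the Ctrl share, 0.0742% (0.00898 to 0.268%), reached below both limits, so no difference was detectable at this depth. Outside the Cd79a set, 1 called WD barcode held 1 UMI of Igll1. Vpreb1, its partner, was in 25, 15 and 11 barcodes, with 61, 15 and 11 UMIs in all. A single Ctrl barcode held 32 of its 61 UMIs, and no barcode of the other libraries held more than 1.

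**Figure D1:**
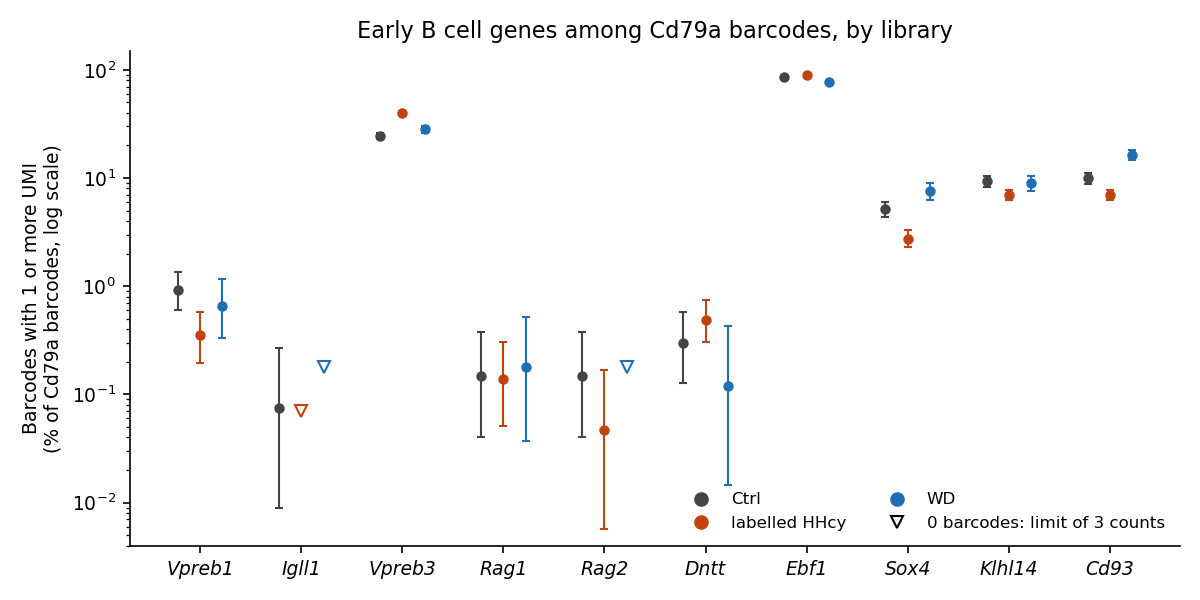
Share of Cd79a barcodes with 1 or more UMI of each gene on a log axis, in the Ctrl library, the library labelled HHcy and the WD library, with 95% Clopper-Pearson intervals; open triangles mark the limit of 3 counts where no barcode held the gene. Ebf1 and Vpreb3 were in 24.7% or more of the barcodes of each library, Sox4, Klhl14 and Cd93 in 2.76 to 16.4%, and the other 5 genes in fewer than 1 of every 100.

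Single Vpreb1 UMIs were not confined to B cells. Barcodes that reached the B limit held a Vpreb1 UMI in 1.00%, 0.314% and 0.787% of cases, at medians of 7873, 6532 and 6802 UMIs. Mononuclear phagocytes, which should lack it, held one in 0.479%, 0.488% and 0.232%, at medians of 9266, 9504 and 10707 UMIs. In the library labelled HHcy the B share (interval 0.162 to 0.547%) was no higher than the phagocyte share (0.159 to 1.14%). The 2 intervals also overlapped in the Ctrl library (0.637 to 1.50% and 0.207 to 0.942%) and the WD library (0.378 to 1.44% and 0.0853 to 0.505%). Single Vpreb1 UMIs are thus not read as expression in any library, and free RNA as their source was not tested. Plasmacytoid dendritic barcodes of the library labelled HHcy held Vpreb1 in 3 of 29 cases. Vpreb1 transcripts match those of Vpreb2 at 97.4% of 759 aligned bases, so reads could be split between these genes, and Vpreb1 also overlaps Top3b on the other strand. The sources used here do not say whether counting used strand, which also touches Rag2 (overlapped by B230118H07Rik), Ebf1 (Gm12158) and Klhl14 (4930426D05Rik). Rag1 lies on the same strand as B230118H07Rik, so strand could not separate that pair.

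Rag1, Rag2 and Dntt, the recombination genes, were as rare. Rag1 was in 4, 6 and 3 Cd79a barcodes, Rag2 in 4, 2 and 0, and Dntt in 8, 21 and 2. These barcodes were in part not B cells: 3 of 4, 2 of 6 and 3 of 3 Rag1 barcodes reached the B limit, and 5 of 8, 12 of 21 and 1 of 2 Dntt barcodes did. Within B barcodes no Dntt count was above 1 UMI in any library, and the highest Rag1 counts were 2, 1 and 4 UMIs. The few B barcodes with Rag1 held Sox4 in 3 of 3, 1 of 2 and 3 of 3 cases, and Vpreb3 in 2 of 3, 2 of 2 and 3 of 3. Of B barcodes without Rag1, 5.38%, 2.46% and 8.23% held Sox4 and 28.4%, 43.8% and 36.2% held Vpreb3.

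Higher counts than in B barcodes were found in T or NK barcodes, taken with or without Cd79a. Rag1 was detected in 3 of 126, 11 of 204 and 5 of 133 of them (2.38%, 5.39% and 3.76%), with up to 3, 24 and 23 UMIs in a barcode. Dntt was in 5, 11 and 7, with up to 8, 31 and 46 UMIs. In B barcodes Rag1 was at 0.131%, 0.0523% and 0.236%, and Dntt at 0.218%, 0.314% and 0.0787%. Plasmacytoid dendritic barcodes, few as they were, held Dntt in 1 of 2, 14 of 29 and 2 of 6 cases, with up to 1, 9 and 10 UMIs.

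**Figure D2:**
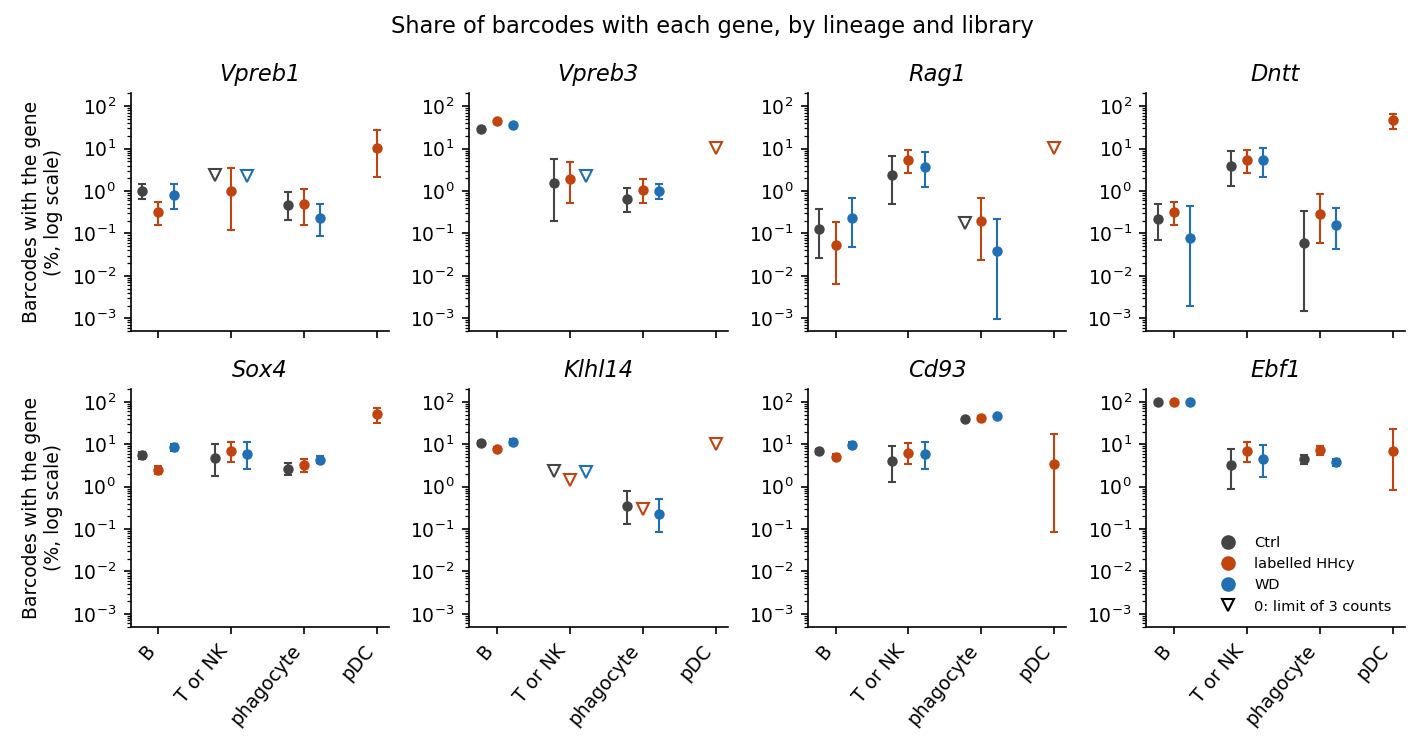
Share of barcodes with each of 8 genes on a log axis, by library and by the lineage limit the barcode reached, for 4 of the 7 lineages (endothelial, fibroblast and neutrophil barcodes are not drawn), with 95% Clopper-Pearson intervals; groups of fewer than 20 barcodes are left out, which removes plasmacytoid dendritic cells (pDC) of 2 libraries, and open triangles mark the limit of 3 counts. Shares of Rag1 and Dntt were lower in B than in T or NK barcodes, those of Klhl14 and Vpreb3 were highest in B barcodes, and that of Cd93 was higher in phagocytes than in B barcodes.

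A barcode was taken to hold the precursor combination when at least 2 of Vpreb1, Igll1, Rag1, Rag2 and Dntt were detected. Of the Cd79a barcodes, 4 of 2697 in the Ctrl library (0.148%, 0.0404 to 0.379%), 5 of 4280 in the library labelled HHcy (0.117%, 0.0379 to 0.272%) and 0 of 1672 in the WD library held it. A count of 0 allows up to 0.179% in the WD library, so no difference was detectable at this depth. These 9 barcodes were of several lineages. In the Ctrl library 3 were B barcodes and 1 was a T or NK barcode. In the library labelled HHcy 3 were T or NK barcodes, 1 was plasmacytoid dendritic and 1 a phagocyte, and no B barcode of that library or of the WD library held the combination (0 of 3824 and 0 of 1270).

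The 3 Ctrl B barcodes carried a set of transcripts in common. Vpreb1 was at 32, 2 and 5 UMIs and Igll1 at 25, 0 and 4, with Rag2 at 0, 1 and 0. Vpreb3 was at 28, 45 and 28, Ebf1 at 49, 27 and 27, Sox4 at 22, 13 and 1, Cd93 at 11, 2 and 4 and Cd79a at 27, 18 and 14. All 3 also held Il7r, the receptor for the interleukin that pro-B and pre-B cells need, at 8, 15 and 6 UMIs. Of 12 cell cycle genes they expressed 12, 11 and 12, with Mki67 at 50, 16 and 22 UMIs.

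Genes of mature B cells were low in the same 3 barcodes. Ms4a1, which encodes CD20, was at 0, 1 and 0 UMIs and Ighd at 0, 2 and 1, while Ighm, the first heavy chain to be made, was at 47, 77 and 64. The kappa light chain gene Igkc was at 0, 47 and 2 UMIs, so the barcode with 47 held light-chain RNA and no Igll1. Their totals of 43969, 17453 and 29590 UMIs were above the library's median, and none held more than 2 of the 12 T or NK markers or 3 of the 14 phagocyte markers. Thinned to 2000 UMIs, 0 Ctrl barcodes still held 2 of the 5 genes. A draw of 2000 UMIs keeps few of the counts above, so this 0 is no check on these barcodes.

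The 6 other barcodes of the combination were of another kind. All held Rag1 or Vpreb1 together with Dntt, 1 or 2 UMIs of Cd79a, and 0 UMIs of Ebf1 and Vpreb3. The 3 T or NK barcodes of the library labelled HHcy held Dntt at 2, 20 and 31 UMIs, Rag1 at 1, 24 and 5, Cd3g at 4, 14 and 16, and Cd8b1, a chain of the CD8 coreceptor, at 4, 24 and 13. The Ctrl T barcode held Dntt at 4 and Cd3g at 4 UMIs and Cd8b1 at 0. The plasmacytoid dendritic barcode held Siglech at 16 UMIs and the phagocyte Lyz2 at 351.

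**Figure D3:**
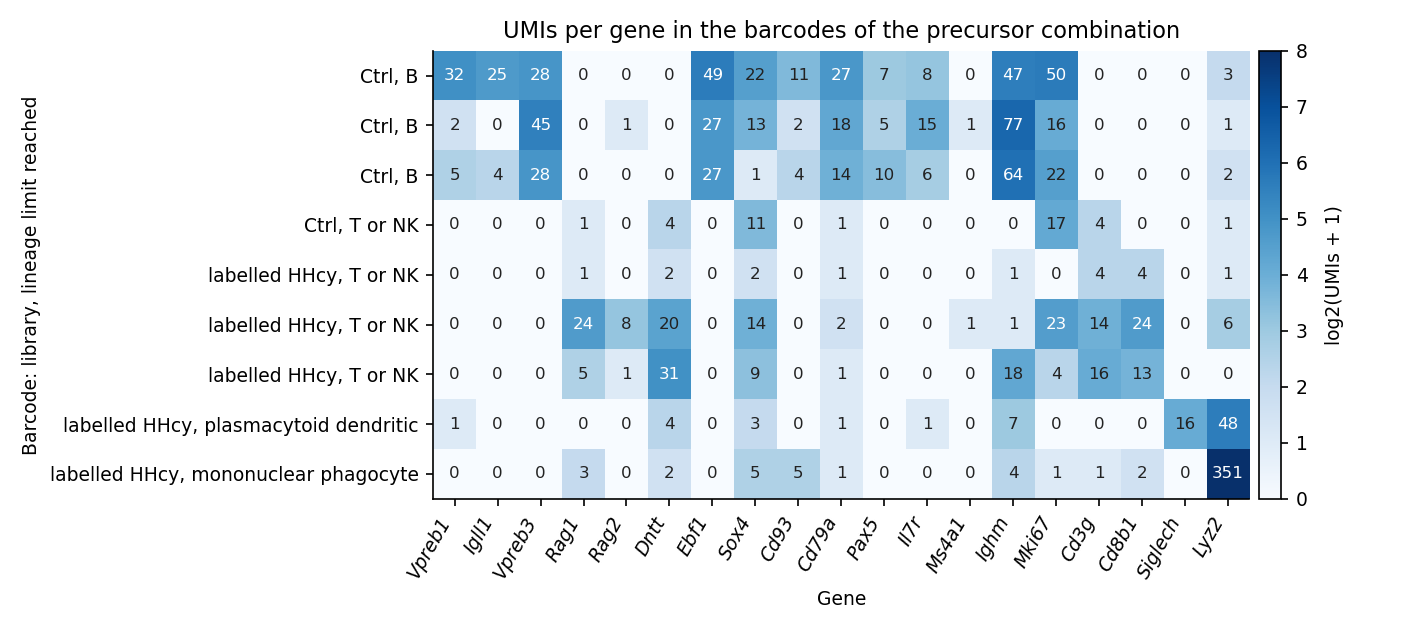
UMIs of 19 genes in the 9 Cd79a barcodes with the precursor combination; rows are barcodes named by library and by the lineage limit they reached, numbers are UMIs and the shade is log2(UMIs + 1). Vpreb1, Ebf1, Vpreb3, Il7r and Cd79a were in all 3 Ctrl B rows and Igll1 in 2 of them, whereas the 5 rows of the library labelled HHcy held Dntt without Ebf1 or Vpreb3.

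The same 2-gene rule was applied without the Cd79a condition to find where else these genes met. It was fulfilled in 3 of 126, 10 of 204 and 5 of 133 T or NK barcodes (2.38%, 4.90% and 3.76%), with wide intervals of 0.494 to 6.80%, 2.38 to 8.83% and 1.23 to 8.55%. Each of these 18 barcodes held both Rag1 and Dntt, 0 held Vpreb3, and 2, 10 and 4 held Cd8b1. Among multi-lineage barcodes it was met in 3 of 678, 14 of 1897 and 10 of 1494, and all of these reached the T or NK limit. Barcodes that reached no lineage limit fulfilled it in 3, 1 and 0 cases.

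One of those last Ctrl barcodes, singled out after its values were seen, held 78 UMIs of Dntt, 1 of Rag2, 11 of Il7r, 25 of Sox4, 17 of Cd93 and 17 of Ighm, and 2 of Ebf1. It had 3 UMIs of Cd79b and 0 of Cd79a and Pax5, so it lay outside the Cd79a set. It had 31649 UMIs in all and expressed 8 of the 12 cell cycle genes.

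Ebf1 and Vpreb3 were the members found in most or many B cells. Ebf1 was in 85.7%, 90.3% and 77.2% of Cd79a barcodes and in 98.1%, 98.6% and 97.4% of B barcodes, against 4.43%, 7.22% and 3.72% of phagocytes. Nearly every B barcode thus held it, and no stage was assigned to these barcodes. Its CPM in Cd79a barcodes, 714, 894 and 563, followed the share of those barcodes that reached the B limit. Among B barcodes the levels were 851, 1020 and 838 CPM.

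Vpreb3 divided the B barcodes. It was in 24.7% (23.0 to 26.3%), 40.0% (38.6 to 41.5%) and 28.2% (26.1 to 30.5%) of Cd79a barcodes, and in 28.4%, 43.9% and 36.2% of B barcodes, against 0.659%, 1.07% and 1.01% of phagocytes. With every barcode thinned to 2000 UMIs, leaving out 52, 57 and 32 shallower ones, the shares were 14.8%, 19.7% and 17.0%. Over Cd79a barcodes the library labelled HHcy stayed highest on both measures, and the WD library lay between. Among B barcodes the order changed: thinned in the same way, 16.83%, 21.45% and 21.95% held Vpreb3. Its level in B barcodes was 110.4, 136.7 and 164.5 CPM, highest in the WD library. Barcodes with Vpreb3 were shallower than those without it, at medians of 5667, 6240 and 5514 UMIs against 8834, 7036 and 8642.

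Among B barcodes, Vpreb3 was found with markers of follicular B cells and seldom with those of B1 cells, an innate-like B cell. With Fcer2a (CD23, a follicular marker) detected it was in 43.7%, 50.4% and 48.4%, and without it in 21.4%, 33.4% and 30.1%. With Zbtb32, a transcription factor of B1 and memory B cells, it was in 8.0%, 16.0% and 11.5%, and without it in 36.1%, 47.4% and 43.8%. Barcodes with Plscr1, another gene of the B1 list, held it in 8.46%, 26.1% and 14.5%, against 38.7%, 48.3% and 45.2% without. Depth ran the other way: the Zbtb32 barcodes had medians of 11904, 13088 and 12353 UMIs against 6385, 6250 and 5812. By likeness over all 8649 Cd79a barcodes, the genes most often detected with Vpreb3 were Chchd10 (phi coefficient 0.36), Cd72 (0.28) and Satb1 (0.28), a description that shares libraries and depth.

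Sox4, Klhl14 and Cd93 were each in a minority of B cells. Sox4 was in 138, 118 and 126 Cd79a barcodes (5.12%, 2.76% and 7.54%), at 14.0, 7.92 and 17.0 CPM. It was not particular to B cells: B barcodes held it in 5.49%, 2.48% and 8.43%, phagocytes in 2.63%, 3.22% and 4.30%, and T or NK barcodes in 4.76%, 6.86% and 6.02%. In the library labelled HHcy the B share was no higher than that of phagocytes, but phagocytes were deeper (medians of 9504 against 6532 UMIs). Thinned to the same depth, 3.025%, 1.18% and 4.834% of B barcodes held Sox4, against 0.3102%, 0.1984% and 0.9905% of phagocytes. T or NK barcodes thinned likewise held it in 4.839%, 4.478% and 3.15%. In the library labelled HHcy, 15 of 29 plasmacytoid dendritic barcodes held Sox4. Klhl14 was in 252, 298 and 150 (9.34%, 6.96% and 8.97%), and 98.8%, 99.3% and 98.0% of these reached the B limit. T or NK barcodes held it in 0 of 126, 0 of 204 and 0 of 133 cases, which allows shares of up to 2.38%, 1.47% and 2.26%, and phagocytes in at most 0.359%.

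Cd93 stood apart from both. It was in 268, 299 and 274 Cd79a barcodes (9.94%, 6.99% and 16.4%), but only 57.5%, 64.6% and 43.8% of these were B barcodes. Among phagocytes it was in 39.5%, 42.2% and 45.5%, and in endothelial barcodes in 6 of 7, 15 of 20 and 18 of 28. Its 3 most alike genes were Cmklr1, Msr1 and C3ar1 (phi 0.28 each), of which Msr1 encodes a scavenger receptor of macrophages. The higher share in the WD library goes with a larger part of phagocytes among its Cd79a barcodes (272 of 1672, against 220 of 2697 and 187 of 4280). In B barcodes alone, Cd93 was in 6.76%, 5.05% and 9.53%.

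Vpreb3, Klhl14 and Cd93 were each found more often in B barcodes with Sox4 than in those without. Vpreb3 was in 81.0% (73.0 to 87.4%), 72.6% (62.5 to 81.3%) and 81.3% (72.6 to 88.2%) of B barcodes with Sox4, against 25.3%, 43.1% and 32.2% of those without. Klhl14 was in 41.3%, 29.5% and 39.3% of B barcodes with Sox4 and in 9.11%, 7.19% and 9.05% without. Cd93 was in 23.0%, 13.7% and 25.2% with Sox4 and in 5.78%, 4.83% and 8.02% without. The Sox4 barcodes were no deeper than the others, with medians of 5358, 5563 and 5482 UMIs against 8080, 6577 and 6983. The genes most alike to Sox4 were Wnt10a (phi 0.23), Atp1b1 (0.22) and Myb (0.22), and those most alike to Klhl14 were Fam129c (0.21), Akap12 (0.18) and Slco4a1 (0.18).

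An immature combination, at least 3 of Vpreb3, Sox4, Klhl14 and Cd93, was held by 85 of 2697 Ctrl barcodes (3.15%, 2.53 to 3.88%). It was held by 48 of 4280 in the library labelled HHcy (1.12%, 0.828 to 1.48%) and by 73 of 1672 in the WD library (4.37%, 3.44 to 5.46%). Against Ctrl, the log2 ratio of these shares was -1.49 (-2.00 to -0.98) in the library labelled HHcy. In the WD library it was 0.47 (0.028 to 0.91). All 206 barcodes but 1 of the WD library reached the B limit. Barcodes just under the threshold, with exactly 2 of the 4 genes, numbered 195, 288 and 133.

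Both ratios depended on which barcodes were counted. With multi-lineage barcodes kept, the share in the library labelled HHcy was 2.09% and its log2 ratio -0.69 (-1.06 to -0.32). The multi-lineage Cd79a barcodes held the combination in 4.55%, 4.70% and 7.08%, at medians of 18216, 34517 and 27534 UMIs, and 75.0%, 92.0% and 90.7% of these held Cd93. Among barcodes thinned to 2000 UMIs the shares were 0.718%, 0.213% and 1.34%. With each gene counted only at 2 UMIs or more, 12, 6 and 6 barcodes remained and the WD ratio turned to -0.31. As a share of all barcodes used, the combination was at 1.59%, 0.767% and 1.40%, where the WD library was not above Ctrl.

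**Figure D4:**
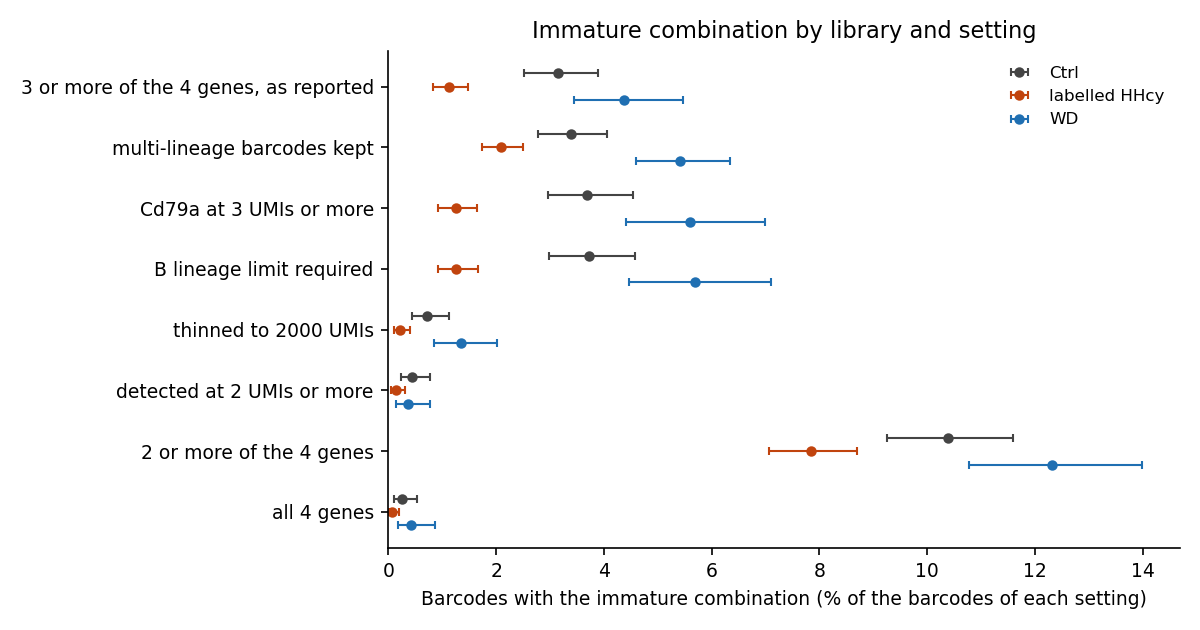
Share of barcodes with the immature combination in the 3 libraries, as reported and under 7 other settings, with 95% Clopper-Pearson intervals. The library labelled HHcy was the lowest in each setting shown, between 0.0701% and 7.85%, and the WD library the highest in each but the one that required 2 UMIs per gene.

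The B barcodes with the immature combination were compared with the other Cd79a barcodes of B lineage in their own library. The median gene with at least 300 UMIs was 0.28, 0.26 and 0.26 higher on the log2 scale in the combination, so ratios are given relative to it, and a gene is called higher or lower where its counting interval lay wholly on one side. Over all such genes 18.4%, 10.8% and 14.9% were called higher and 20.9%, 12.1% and 19.6% lower. The combination was defined by 4 of the members, so their own levels are not a result, and counts in lists describe these barcodes only.

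Transcription factors of the B lineage were mostly higher. Of 12 genes, 10, 9 and 10 were called higher and 0 lower, with 9 higher in all 3 libraries. Spib was at 657, 616 and 979 CPM against 205, 179 and 220, with relative log2 ratios of 1.40, 1.52 and 1.89. Myb, a factor of lymphoid progenitors, was at 131, 51.7 and 85.2 CPM against 7.08, 4.58 and 7.44, with ratios of 3.93, 3.24 and 3.25, and Lef1, which acts in pro-B cells, was at 56.2, 15.7 and 23.0 CPM against 2.17, 1.18 and 4.70. Pax5, the factor that keeps B cell identity, had ratios of 0.73, 0.37 and 1.11. Irf4 was called in neither direction in any library, and Erg was at 0 UMIs in the combination.

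Surface and signalling genes of pro-B and pre-B cells divided. Of 11 genes, 6, 3 and 4 were called higher and 1, 0 and 0 lower. Cd24a (heat-stable antigen, high on immature B cells) had relative ratios of 1.41, 1.16 and 1.25, Akap12 had 2.48, 2.60 and 3.06 and Bst1 had 2.19, 2.14 and 3.15. Kit, the receptor of early progenitors, was called in neither direction in any library. Il7r was at 47.6 CPM against 3.61 in the Ctrl library, at 0 UMIs in the library labelled HHcy and at 9.21 against 3.92 in the WD library.

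Part of the Ctrl values came from the 3 barcodes that held both combinations. Without them, an alternative added after the data were seen, 82 Ctrl barcodes remained, and Il7r was at 4 UMIs (6.64 CPM) with a relative ratio of 0.60 and no call. Bst1 was then at 2 UMIs, with a ratio of 1.07 and no call. Of the pro-B and pre-B list 3 genes were then called higher instead of 6. The cell cycle list had 12, 11 and 3 of 12 genes called higher and 0, 0 and 1 lower, and in the Ctrl library without these 3 barcodes 6 higher and 2 lower (Top2a and Ube2c). Few barcodes carried these calls: 7 of 85, 4 of 48 and 3 of 73 (8.2%, 8.3% and 4.1%) expressed at least 6 of the 12 genes. The 7 include the 3 Ctrl barcodes with both combinations. Of other Cd79a barcodes 3.6%, 2.6% and 3.4% did so, and the intervals overlapped in each library. In the library labelled HHcy 1 barcode held 80.6% of the Rrm2 UMIs and Mki67 was in 4 barcodes. In the Ctrl library without the 3 barcodes, Mki67 stood at 53.1 CPM against 52.0, where it had been at 173. Of the mature B cell list 4 genes were called lower there instead of 6. Transcription factors had 10 calls in that library without them, with Myb at 63.1 and Lef1 at 26.6 CPM.

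Mature B cell genes were unequal in the combination. Of 9 genes, 3, 2 and 3 were called higher and 6, 6 and 5 lower. Cr2, the complement receptor of mature B cells, was at 21.6, 71.9 and 25.3 against 67.4, 135 and 68.8. H2-Aa, an MHC class II chain, had relative ratios of -1.73, -1.07 and -1.50. Ighd was at -0.74, -1.09 and -0.53, whereas Ms4a1 was higher, at 0.56, 0.70 and 0.88. Of 5 B1 genes 0 were called higher and 4, 2 and 3 lower, and of 6 plasma cell genes 0 were called higher and 3, 3 and 2 lower.

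**Figure D5:**
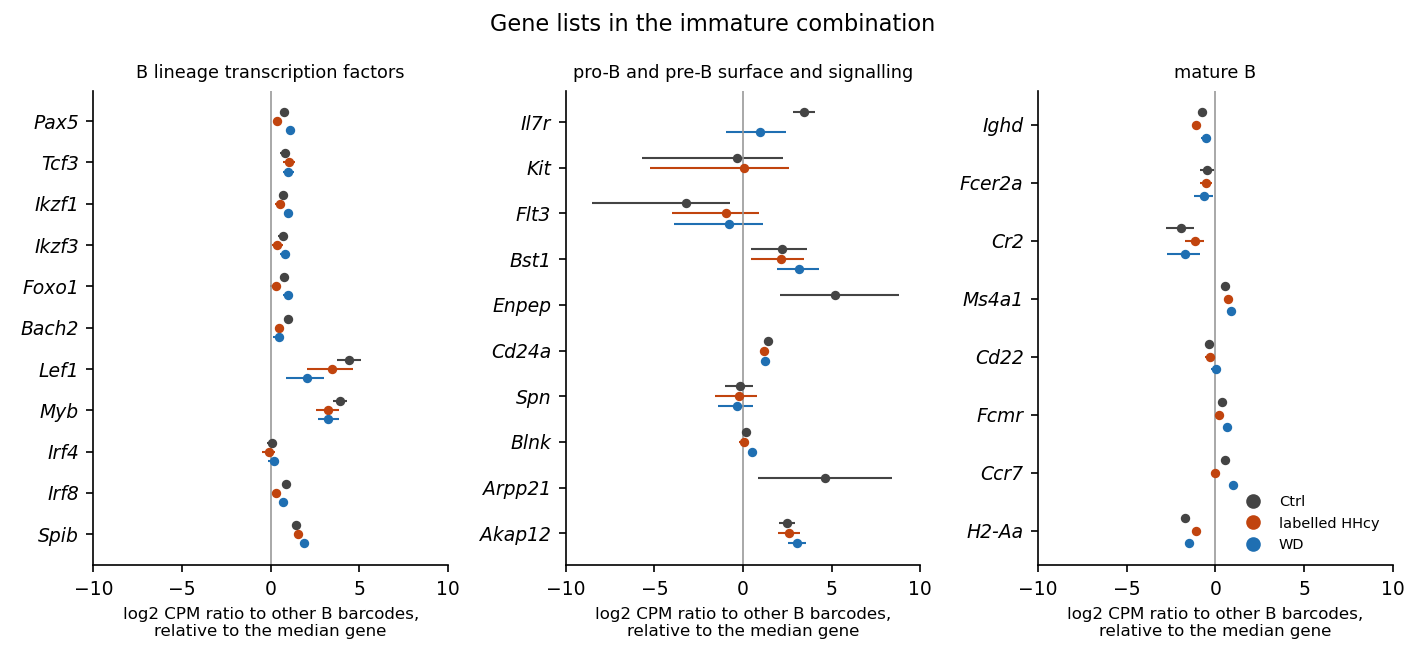
Log2 CPM ratio of B barcodes with the immature combination to other B barcodes of the same library, relative to the median gene (vertical line), for 3 gene lists; points are libraries and bars 95% counting intervals, genes at 0 UMIs on one side have no point, and 1 mature B gene is not drawn. Myb, Lef1, Spib, Cd24a and Akap12 lay to the right in all 3 libraries, and Ighd, Cr2 and H2-Aa to the left.

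Outside the lists, the rule for leading genes named Myb, Slco4a1, Akap12, Atp1b1, Gfi1, Emid1, Myl4, 4930426D05Rik, Coq7 and Serinc5 for the immature combination. Slco4a1 was detected in 41.2%, 22.9% and 28.8% of its barcodes and in 5.44%, 3.45% and 4.57% of other Cd79a barcodes. Gfi1, a repressor needed in early lymphoid cells, was in 31.8%, 16.7% and 27.4% against 4.75%, 3.76% and 5.07%. 4930426D05Rik is antisense to Klhl14, 1 of the defining genes, so its place here is not independent. For the precursor combination the rule rests on 9 barcodes of mixed lineage: Epb41l4b was in all 4 Ctrl barcodes and 0 of 5 in the library labelled HHcy.

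Markers of other cells in the immature combination were given beside these counts. The 14 phagocyte markers summed to 247, 303 and 585 CPM against 340, 366 and 463 in other B barcodes, with 0 of 14 called higher. The 12 T or NK markers summed to 177, 263 and 154 CPM against 351, 263 and 376, and 0 were called higher. The granulocyte progenitor list was at 37.5, 0 and 6.91 CPM against 2.89, 1.42 and 2.45, with 2, 0 and 0 of 4 genes called higher. The 2 were Mpo and Ctsg, and 1 barcode held 91.7% and 100% of their Ctrl UMIs. Haemoglobin genes, at 348, 297 and 378 CPM in other B barcodes, were at 5.77, 4.49 and 46.1 CPM. Few barcodes held them, and by detection Hbb-bt ran the other way in 2 libraries: it was in 4.71% of the Ctrl and 11.1% of the WD barcodes of the combination, against 2.59% and 1.92% of the others. The part of blood left in the vessel in these values was not tested.

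Set against the control library, the 10 genes moved in no common direction. Members with at least 30 UMIs in the 2 libraries together numbered 8 and 7. In the library labelled HHcy 2 of 8 were at least 2-fold higher and 1 at least 2-fold lower in CPM over Cd79a barcodes, against 3.60% and 2.58% of all 13076 genes tested. In the WD library 1 of 7 was higher and 1 lower, against 5.35% and 0.992% of 12498 genes. The median log2 ratio was -0.07 and 0.24 for the members and -0.058 and 0.020 for all genes.

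The genes past 2-fold were the sparse ones. Rag1 and Dntt were higher in the library labelled HHcy (log2 2.26, 0.90 to 3.97, and 2.33, 1.45 to 3.33), where 1 barcode held 68.6% of the Rag1 UMIs and another 35.2% of the Dntt UMIs. With the B limit required Rag1 turned to -1.61 and Dntt was at 0.65, under 2-fold. Dntt was higher in the WD library (1.26, 0.12 to 2.44), where 17 of its 18 UMIs lay in 1 barcode, and it turned to -1.31 under the same limit. Vpreb1 was lower in both (-2.57, -3.50 to -1.74, and -1.80, -2.88 to -0.86), with 52.5% of the Ctrl UMIs in 1 barcode. Thinned to 2000 UMIs per barcode its ratios were -0.68 and -0.31, under 2-fold in both.

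Among the abundant members the differences were smaller. Sox4 was lower in the library labelled HHcy (-0.82, -1.05 to -0.60) and at 0.28 (0.045 to 0.51) in the WD library, and no alternative changed either sign. Cd93 was at -0.53 (-0.71 to -0.36) and 0.87 (0.70 to 1.04), but with multi-lineage barcodes kept the former was 0.11. Klhl14 was at -0.46 (-0.68 to -0.25) and -0.15 (-0.41 to 0.10), the latter between -0.53 and 0.18 over the alternatives. Vpreb3 was at 0.38 (0.31 to 0.45) and 0.24 (0.15 to 0.33). The latter lay between -0.20, with multi-lineage barcodes kept, and 0.58 over the alternatives. Ebf1 was at 0.32 (0.30 to 0.35) and -0.34 (-0.38 to -0.31), the latter between -0.60 and -0.017 over the alternatives. Among B barcodes alone its levels were 851, 1020 and 838 CPM. Both comparisons share the Ctrl library, and whether these differences come from the treatments or from the single libraries cannot be told apart.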

How the data were processed

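The deposited matrices hold raw UMI counts per gene and barcode, with no normalization, for 32285 genes. Per the labels' protocols the Chromium 3' v3 kit was used. The file headers name Cell Ranger 4.0.0, the submitters' processing notes Cell Ranger 2.2.0 and the build mm10. Of the gene identifiers, 32235 matched GENCODE M21 (GRCm38).

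Barcodes with fewer than 200 genes or over 10% mitochondrial UMIs were left out. A lineage limit was reached when 50% or more of a list of markers was detected (B 12, T or NK 12, mononuclear phagocyte 14, neutrophil 10, fibroblast 6, endothelial 6, plasmacytoid dendritic 6 genes), and barcodes reaching 2 or more limits were left out as likely doublets; no doublet caller was run, and doublets within a lineage remain. Barcode sequences shared by 2 libraries numbered 24 (Ctrl and labelled HHcy), 20 (Ctrl and WD) and 23 (labelled HHcy and WD).

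UMIs were summed over barcodes and scaled to CPM. Shares carry Clopper-Pearson intervals, CPM ratios conditional binomial intervals and ratios of shares binomial intervals on the log scale, all at 95%. A count of 0 is given with a limit of 3 counts. Thinning drew 2000 UMIs per barcode (seed 1). No test between groups was possible. The calculation of ratios and shares was checked on simulated counts. These were drawn independently, as the intervals assume, so the check does not cover UMIs that gather in few barcodes.

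The members, lists and combinations were chosen with earlier results of these data known. Besides these, up to 10 leading genes were named per combination, by the ratio of detection shares among genes in at least 25% of its barcodes, and 3 genes per member, by phi among genes in at least 50 Cd79a barcodes. Of these, the text gives a selection; some genes counted in the lists are not reported here by name. Tools were Python 3.11.15, numpy 2.4.6, scipy 1.17.1, pandas 2.3.3 and matplotlib 3.10.9. No column had to be set aside as another study's (0 found).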

Additional observations from a re-analysis of the deposited data

How the results depend on the processing

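No paired analysis was possible because each group had 1 library. The precursor combination was in 0% of Ctrl barcodes when thinned to 2000 UMIs or with 3 of the 5 genes required. Thinning keeps few UMIs of such sparse genes, so it is no check on the Ctrl barcodes. In the library labelled HHcy the combination was in 0% with Cd79a at 3 UMIs or with the B limit required. With 1 gene enough, 1.45%, 0.864% and 0.957% held it. Without barcodes with an Apoe UMI (chosen after seeing the data) the library labelled HHcy was at 0.0310%, with a log2 ratio of -2.34. The immature combination was at 2.09% there with multi-lineage barcodes kept (ratio -0.69) and at 2.0% over all called barcodes (ratio -0.67, also added later), and in the WD library at 5.59% with Cd79a at 3 UMIs and 5.68% with the B limit. Thinned, it was at 0.718%, 0.213% and 1.34%. With 2 UMIs per gene it was at 0.445%, 0.140% and 0.359%, where the WD ratio reversed to -0.31. With 2 genes enough it was at 10.4%, 7.85% and 12.3% (ratio of the library labelled HHcy -0.40), and with all 4 at 0.260%, 0.0701% and 0.419%. These alternatives change the barcodes or the number of genes counted.

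Among members, Vpreb3 in the WD library reversed to -0.20 with multi-lineage barcodes kept and -0.19 over all called barcodes, and Cd93 in the library labelled HHcy to 0.11 and 0.10. Rag1 in that library reversed to -0.20, -0.16, -1.64 (Cd79a at 3 UMIs), -1.61 (B limit) and -1.46 (no Apoe UMI), and Dntt in the WD library to -0.33, -0.19, -1.35 and -1.31. The share of genes 2-fold higher or lower in the library labelled HHcy was 1.88% and 1.59% at 100 UMIs and 15.1% and 9.30% at 1 UMI, and in the WD library 3.51% and 0.407%, and 15.7% and 4.94%. The cause of these reversals was not tested. Depth limits the sparse genes: 3 counts correspond to 0.0701% to 0.179% of the Cd79a barcodes where a gene was at 0.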
